A study of Mus musculus with 6 samples.

Results

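The gp130 cytokine system of the subventricular zone was followed through 10 genes. They are the shared receptor chain Il6st (gp130), its partner chains Osmr and Lifr, the ligand-binding chains Il6ra and Cntfr, the ligands Lif, Clcf1 and Cntf, the transcription factor Stat3 and the feedback inhibitor Socs3. A member was read from every probe set, a group of short probes against a transcript, that the array's annotation gave to that symbol alone, and the probe set with the highest mean over the 6 arrays stood for the gene. By this rule 9 of the 10 members were measured, through 26 probe sets, among 18194 genes in all. Cntf has its only probe set in common with other genes and was not analysed here.

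The tissue was the subventricular zone (SVZ), the germinal layer along the lateral ventricle, and the donors were male C57BL/6 adults without a stated transgene. In 3 samples the middle cerebral artery had been occluded (MCAO, a stroke model) and the SVZ was taken 48 h later on the side of the lesion. The 3 control samples came from mice killed at the same time after sham surgery. The labels do not say that every sample was a separate mouse, so p-values measure the spread between these samples only, which may be technical. The dissected tissue mixes cell types, so more cells of a type and more RNA per cell cannot be told apart.

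As background, cytokines of this family bring gp130 together with a partner chain. Oncostatin M signals through gp130 with OSMR, leukaemia inhibitory factor (LIF) through gp130 with LIFR, and ciliary neurotrophic factor (CNTF) and cardiotrophin-like cytokine (CLCF1) through the same pair once they are bound to CNTFR, while interleukin-6 is presented to gp130 by IL6RA. Janus kinases bound to the chains then phosphorylate STAT3, which enters the nucleus and switches on target genes. SOCS3 is such a target, and its protein binds gp130 and the Janus kinases and shuts the signal down. In the brain the pathway is known for astrocyte differentiation and reactivity, and in the SVZ for neural stem cell maintenance.

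STAT dimers bind the palindrome TTCNNNGAA, where N is any base. The 250 bases before the transcription start were searched for it in RefSeq promoters of the GRCm38.p6 build, in which 9 of the 10 members have 15 windows between them. These 9 include Cntf, while Clcf1 has no window and was not searched. Several of the windows are overlapping ones of Cntfr. The motif is its own reverse complement, so a search of 1 strand covers both, and no other motif was searched. Of all 32851 promoter windows 7.02% held it, and of all 27025 genes 8.13% had it in a window. Among the members it was found in 1 window, that of Socs3, 154 bases before the start. The windows of the 3 members with the highest differences between the groups are shown for comparison, on the gene's strand from 5′ to 3′, with the motif in capitals. They lie at chr11:117969367-117969616 (minus strand), chr15:6874314-6874563 (minus strand) and chr11:100939541-100939790 (minus strand). A match of these letters describes the window and does not show binding.
Socs3: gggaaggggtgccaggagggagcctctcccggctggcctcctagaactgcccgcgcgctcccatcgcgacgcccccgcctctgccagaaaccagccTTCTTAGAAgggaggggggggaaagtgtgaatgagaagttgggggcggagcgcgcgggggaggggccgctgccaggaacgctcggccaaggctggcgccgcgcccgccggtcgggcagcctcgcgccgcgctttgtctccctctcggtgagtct
Osmr: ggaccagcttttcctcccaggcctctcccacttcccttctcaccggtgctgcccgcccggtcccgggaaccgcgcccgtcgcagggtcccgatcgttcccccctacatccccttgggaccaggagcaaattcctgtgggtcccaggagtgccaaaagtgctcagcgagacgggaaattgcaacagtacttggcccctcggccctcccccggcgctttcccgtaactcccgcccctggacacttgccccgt
Stat3: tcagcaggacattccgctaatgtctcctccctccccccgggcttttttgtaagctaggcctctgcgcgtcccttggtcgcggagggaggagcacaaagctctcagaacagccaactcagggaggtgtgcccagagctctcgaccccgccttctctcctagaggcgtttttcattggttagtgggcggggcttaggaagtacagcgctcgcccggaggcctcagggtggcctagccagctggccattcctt

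The arrays numbered 1 stood apart from the others in both groups, along the component with 40.8% of the variance, and carried less signal from 24 poly-A controls (7.63 and 7.92 log2, against 8.76 to 9.17 on the other 4 arrays). Same-numbered arrays deviated from their group means together, with correlations across 18194 genes of 0.77, 0.44 and 0.48. Deviations within a group cancel out, so the arrays numbered 1 push the other 4 arrays the opposite way. Differently numbered arrays were not compared, so 0.44 and 0.48 do not show how the other 4 arrays are matched. A fit blocked on the sample number is given where it changes a call, and such calls depend on that matching. The tissue was set against cell type markers, as a description only, since probe sets differ in brightness for reasons other than RNA level. In sham samples 7 of 7 measured markers of neural stem and progenitor cells, 7 of 8 of neuroblasts and 7 of 8 of ependymal cells lay above the median gene. So did 8 of 8 markers of astrocytes, 7 of 7 of microglia, 7 of 7 of oligodendrocytes and 6 of 6 of striatal neurons, against 2 of 7 of choroid plexus, 1 of 7 of lymphocytes and 0 of 6 of neutrophils.

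Of the 9 measured members 2 rose after MCAO, Osmr and Socs3, and 0 fell, by the moderated test of limma at a threshold of 0.05 on p-values adjusted over all genes (Benjamini-Hochberg). Over all genes 1.13% were called, 1.12% as higher and 0.0165% as lower in MCAO. When the sample number entered as a block 3 members rose and 0 fell, Stat3 being the third, where 6.12% of all genes were called, 4.82% higher and 1.3% lower. At an unadjusted p under 0.05, 4 of the 9 passed without the block, beside 8.77% of all genes. The MCAO and sham values did not overlap for 3 members, Osmr, Stat3 and Socs3, against 13.8% of all genes. The members' median difference was 0.24 log2, against -0.0064 for all genes. A permutation test of 3 arrays against 3 cannot go below p = 0.1, 2-sided.

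**Figure D1:**
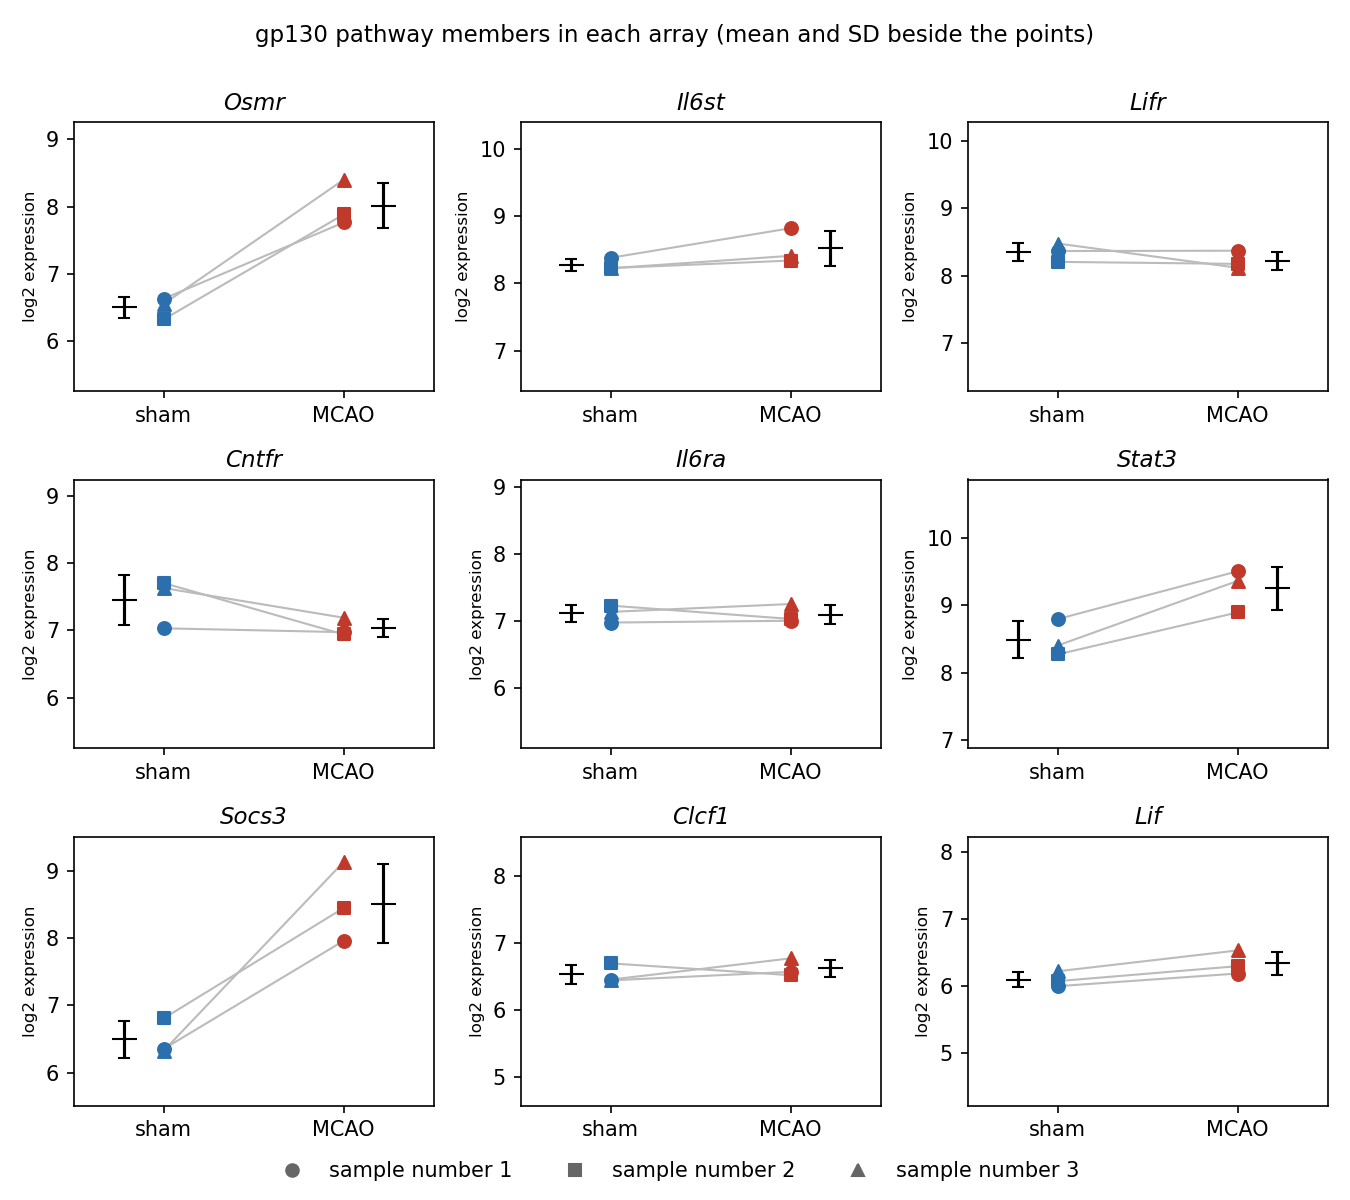
Log2 expression of the 9 measured members on each array, with sham at left and MCAO at right and every panel spanning the same number of log2 units. Lines join same-numbered samples, and the black bars beside the points give the mean and SD of 3 arrays. Osmr, Stat3 and Socs3 have all MCAO points above all sham points, while the groups overlap in the other 6 panels.

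Among the signalling receptor chains, Osmr, the oncostatin M receptor, had the clear difference. It read 7.76, 7.88 and 8.40 log2 on MCAO 1, 2 and 3, and 6.63, 6.32 and 6.55 on sham 1, 2 and 3. All 3 MCAO arrays were above all 3 sham arrays, with MCAO 3 highest and sham 2 lowest. Osmr rose by 1.51 ± 0.17 log2 (SE; n = 3 in each group), a 2.86-fold change (adjusted p = 0.00850). The differences within same-numbered samples were 1.13, 1.56 and 1.85. The call was lost without sham 3, where the difference was 1.54 (adjusted p = 0.0607).

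Osmr has 3 probe sets, and they did not move alike. The second, 1418675_at, read 6.53 to 6.72 in MCAO and 6.01 to 6.34 in sham, without overlap and 0.45 higher in MCAO (adjusted p over all probe sets = 0.183, and 0.0101 with the block). The third, 1459217_at, was dim on every array, at 5.79 to 5.91 in MCAO and 5.85 to 6.01 in sham, and read 0.07 lower in MCAO. With the mean of the probe sets Osmr still rose, by 0.63 (adjusted p = 0.0109).

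Il6st, the gp130 chain that all these cytokines use, showed no difference past the threshold. It read 8.82, 8.34 and 8.41 on MCAO 1, 2 and 3, and 8.38, 8.23 and 8.22 on sham 1, 2 and 3. The groups overlapped, and the arrays numbered 1 were the highest of each group. The difference was 0.25 log2 (95% interval from -0.06 to 0.55, adjusted p = 0.726, and 0.113 with the block). All 4 Il6st probe sets read higher in MCAO, by 0.08 to 0.25, and 0 of them passed, with or without the block.

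Lifr, the LIF receptor and the other partner of gp130, read 8.37, 8.17 and 8.12 on MCAO 1, 2 and 3, and 8.36, 8.20 and 8.48 on sham 1, 2 and 3. MCAO values lay within or just under the sham range. The difference was -0.13 (95% interval from -0.37 to 0.11, adjusted p = 0.886), and the other probe sets read -0.02 and 0.01. On the brightest probe sets the intervals for Il6st and Lifr end at 0.55 and 0.11, below the lower end of 1.12 for Osmr. The interval of the second Osmr probe set, 1418675_at, ran from 0.21 to 0.69 and overlaps that of Il6st. The separation from Il6st therefore rests on 1 Osmr probe set.

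The ligand-binding chains are Cntfr, a lipid-anchored chain for CNTF and CLCF1, and Il6ra, the interleukin-6 receptor. Cntfr read 6.97, 6.94 and 7.19 on MCAO 1, 2 and 3, and 7.03, 7.70 and 7.63 on sham 1, 2 and 3. Sham 2 and sham 3 were above all MCAO arrays, while sham 1 lay among them. The difference was -0.42 ± 0.18 log2 (SE; n = 3 in each group), short of the threshold (adjusted p = 0.539, and 0.0569 with the block). Within same-numbered samples it was -0.06, -0.77 and -0.44. Without both arrays numbered 1 Cntfr fell by 0.60 (adjusted p = 0.0469). Its second probe set read -0.15, and -0.14 to -0.16 within same-numbered samples.

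Il6ra read 7.01 to 7.26 in MCAO and 6.98 to 7.23 in sham, with full overlap. The difference was -0.02 (95% interval from -0.25 to 0.22, adjusted p = 0.990). Its other probe set, 1452416_at, read 6.51 to 6.76 in MCAO and 6.37 to 6.46 in sham, a difference of 0.17 without overlap that did not pass (adjusted p over all probe sets = 0.811).

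The ligands gave weak signals. Lif, which acts on progenitors and astrocytes through LIFR, read 6.19, 6.30 and 6.53 on MCAO 1, 2 and 3, and 6.00, 6.07 and 6.22 on sham 1, 2 and 3, where the median gene lay at 7.13. MCAO was higher within every same-numbered pair, by 0.19, 0.22 and 0.31, but MCAO 1 lay below sham 3. The difference was 0.24 ± 0.11 log2 (SE; n = 3 in each group; adjusted p = 0.608, and 0.0713 with the block). The second Lif probe set differed by 0.01.

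Clcf1, a ligand of the CNTF receptor, read 6.52 to 6.77 in MCAO and 6.44 to 6.70 in sham on its brightest probe set, a difference of 0.09 with overlap (adjusted p = 0.942). Its dimmest, 1437270_a_at, read 5.86, 5.82 and 5.87 on MCAO 1, 2 and 3, and 5.44, 5.39 and 5.52 on sham 1, 2 and 3. All MCAO arrays were higher, and each group was tight. That probe set differed by 0.41 ± 0.07 log2 (SE; n = 3 in each group), which did not pass over all probe sets (adjusted p = 0.0614) and did with the block (adjusted p = 0.0153). The remaining probe set differed by 0.07, so the Clcf1 probe sets disagreed in size while all 3 read higher in MCAO.

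Stat3, the transcription factor downstream of gp130, read 9.51, 8.89 and 9.36 on MCAO 1, 2 and 3, and 8.79, 8.27 and 8.40 on sham 1, 2 and 3. Every MCAO array was above every sham array, with the arrays numbered 1 highest in both groups. The difference was 0.77 ± 0.19 log2 (SE; n = 3 in each group), or 1.70-fold, and did not pass (adjusted p = 0.156). Within same-numbered samples it was 0.71, 0.62 and 0.96. In the fit blocked on sample number Stat3 rose (SE 0.08, adjusted p = 2.91e-04), as it did without both arrays numbered 1 (0.79, adjusted p = 0.0469).

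The second bright Stat3 probe set, 1460700_at, gave a like difference with less spread in sham. It read 8.34, 8.64 and 8.92 on MCAO 1, 2 and 3, and 7.84, 7.96 and 8.02 on sham 1, 2 and 3. On this probe set MCAO 1 was the lowest of its group rather than the highest. The difference was 0.69 ± 0.14 (SE; n = 3 in each group; adjusted p over all probe sets = 0.126, and 0.00335 with the block). Of the dimmer probe sets, 1459961_a_at read 0.12 higher and 1424272_at read 0.14 lower in MCAO, neither past the threshold with or without the block. On 1424272_at the groups did not overlap, at 6.74 to 6.85 in MCAO and 6.89 to 6.97 in sham, opposite in direction to the bright probe sets. With the mean of the 4 probe sets the difference was 0.36 (adjusted p = 0.0728).

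Socs3, the feedback inhibitor, had the largest difference among the members. It read 7.96, 8.45 and 9.14 on MCAO 1, 2 and 3, and 6.35, 6.81 and 6.33 on sham 1, 2 and 3. The groups did not overlap, and MCAO 3 stood highest. Socs3 rose by 2.02 ± 0.28 log2 (SE; n = 3 in each group), a 4.05-fold change (adjusted p = 0.0167). Within same-numbered samples the differences were 1.61, 1.64 and 2.81. The call was lost without sham 3 (1.93, adjusted p = 0.113) or MCAO 2 (2.05, adjusted p = 0.0600).

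The probe set behind that value is of the _x_at type, which may also bind related transcripts. The other _x_at probe set, 1456212_x_at, read 6.89, 7.86 and 8.32 on MCAO 1, 2 and 3, and between 6.18 and 6.21 on the 3 sham arrays. The gene-specific type, 1416576_at, read 7.23, 7.51 and 7.91 on MCAO 1, 2 and 3, and 6.77, 6.79 and 6.89 on sham 1, 2 and 3. On all 3 probe sets the groups were apart, MCAO 3 was highest and MCAO 1 lowest among the MCAO arrays. The sizes differed: 1.49 for 1456212_x_at and 0.73 for 1416576_at, with adjusted p over all probe sets of 0.141 and 0.159 (0.00667 and 0.00594 with the block). With 1416576_at in place of the brightest, Socs3 read 0.73 (adjusted p = 0.109 over all genes).

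Over the 26 probe sets of the members, 19 read higher in MCAO, where 47.7% of all genes did. The share over all probe sets was not counted. The groups did not overlap for 10 of the 26, against 12% of all probe sets, and of these 10 only Stat3 1424272_at lay lower in MCAO. The test called 2 of the 26, against 0.548% of all probe sets, and with the block 8, against 2.65%. Probe sets of a gene share its transcripts and are not separate evidence.

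**Figure D2:**
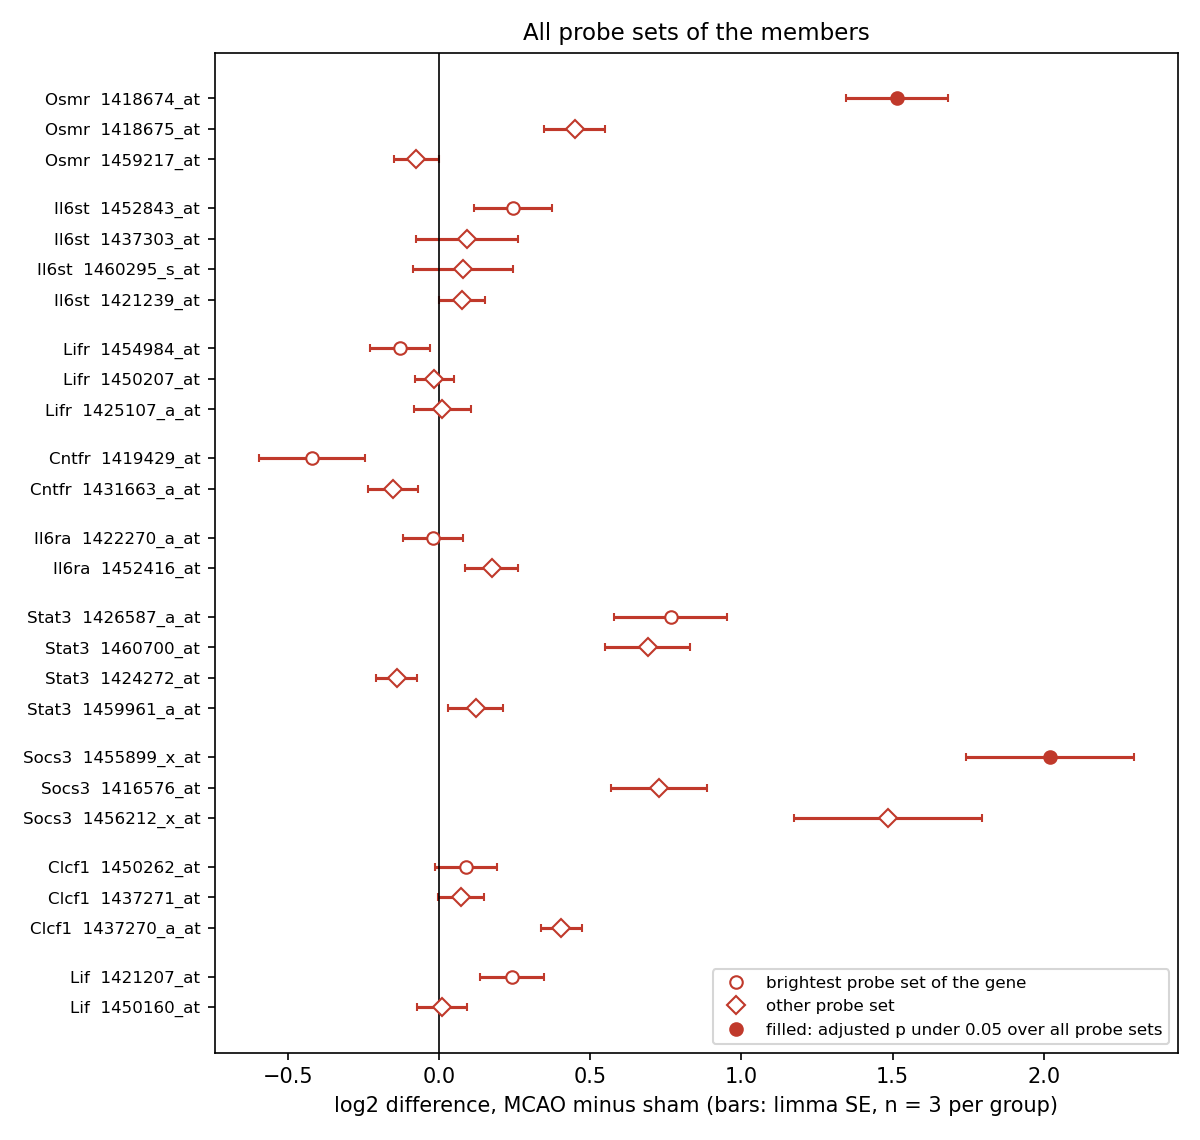
Log2 difference between MCAO and sham for all 26 probe sets of the members, with limma's SE; circles mark the probe set that stands for the gene, diamonds the others, and filled symbols passed over all probe sets. The 3 Socs3 probe sets and the upper 2 of Osmr and of Stat3 lie right of 0.4, as does 1 of Clcf1, and the Il6st, Lifr and Lif probe sets lie between -0.13 and 0.25.

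The profiles nearest to the called members were found by the root mean square difference over the 6 arrays after each gene's sham mean was subtracted, among 18193 other genes. Nearest to Osmr were Cebpd, a transcription factor of the acute-phase response (0.0808 log2), the tubulin gene Tubb6 (0.198) and the metalloproteinase inhibitor gene Timp1 (0.212). Cebpd read 1.24, 1.46 and 1.79 higher in MCAO within same-numbered samples, beside 1.13, 1.56 and 1.85 for Osmr. Nearest to Socs3 were Tagln, an actin-binding protein gene (0.152), the calcium-binding protein gene S100a4 (0.287) and the lipocalin gene Lcn2 (0.312). Tagln read 1.83, 1.45 and 2.56 higher within same-numbered samples, beside 1.61, 1.64 and 2.81 for Socs3. The measure includes the difference between the groups, so it picks genes that differ by a like amount.

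**Figure D3:**
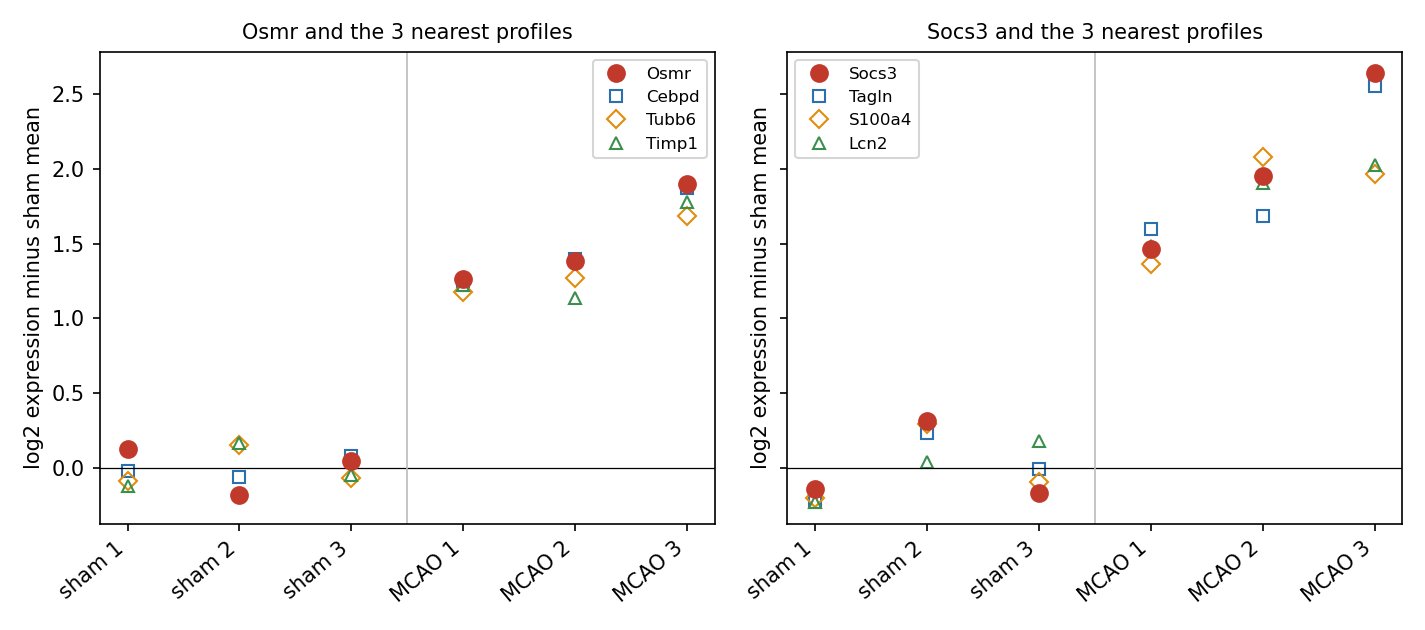
Log2 expression minus the gene's own sham mean on each of the 6 arrays, for Osmr (left) and Socs3 (right) with the 3 genes nearest to each. Sham points lie around 0, and Osmr and Cebpd differ by a root mean square of 0.0808 over the arrays.

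Other genes of the pathway were taken from 5 lists with 52 entries, of which 45 were measured. Of the 45, 1 rose and 0 fell, or 2.22%, with a median difference of 0.02 log2. For these 5 lists, 1.13% of all genes were called and 8.77% had an unadjusted p under 0.05, with a median of -0.0064. Of 6 other ligands and related chains 0 passed, with 1 at an unadjusted p under 0.05: Ebi3, a subunit of interleukin-27, read 0.17, Il11 0.12 and Osm, the ligand of OSMR, -0.07. Osm read 6.58 to 6.71 in MCAO and 6.58 to 6.84 in sham, below the median gene. Il6 itself read 5.44 to 5.49 in MCAO and 5.39 to 5.63 in sham. Of 5 other receptor chains 0 passed, with 0 at an unadjusted p under 0.05; Il27ra read -0.13, Csf3r, the receptor for granulocyte colony-stimulating factor, 0.16 and Il12rb2 0.13.

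Of 9 measured Janus kinases and other STAT factors 0 passed, with 0 at an unadjusted p under 0.05, and their differences ran from -0.07 to 0.20. Jak3 had the smallest p (0.20, adjusted p = 0.751), followed by Stat2 (0.15) and Stat6 (0.11).

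Of 15 other inhibitors of JAK-STAT signalling 1 rose. It was Ptprc (CD45), a phosphatase of leukocytes and microglia, which read 8.45, 7.78 and 7.76 on MCAO 1, 2 and 3, and 6.86, 6.50 and 6.74 on sham 1, 2 and 3. The groups did not overlap, and MCAO 1 was highest. Ptprc rose by 1.29 ± 0.19 log2 (SE; n = 3 in each group; adjusted p = 0.0238). The call was lost without MCAO 3, sham 2 or sham 3 (adjusted p = 0.0621, 0.0928 and 0.127). It was also lost with the mean of its probe sets (0.65, adjusted p = 0.0570) and, where probe sets with a suffix were left out, the difference was 0.01 (adjusted p = 0.992). The phosphatases Ptpn2 and Ptpn6 read 0.24 each without passing, and Ptpn6 passed on a probe set without a suffix (0.53, adjusted p = 0.0441). The other SOCS genes measured here were Socs1 (0.02), Socs2 (0.16), Socs4 (0.10), Socs5 (-0.26), Socs6 (-0.14) and Socs7 (-0.10), and 0 of these 6 passed, with 0 at an unadjusted p under 0.05.

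Of 10 genes of the MAPK and PI3K branch of gp130 signalling 0 passed without the block, with 1 at an unadjusted p under 0.05. That gene was Pik3r1, a regulatory subunit of PI3 kinase, at 8.81, 7.83 and 7.68 on MCAO 1, 2 and 3, and 9.10, 8.67 and 8.66 on sham 1, 2 and 3. MCAO 1 stood among the sham arrays. The difference was -0.71 (adjusted p = 0.500), and with the block Pik3r1 fell (adjusted p = 0.00476). It also fell without MCAO 1 (-1.06, adjusted p = 0.0170) and without both arrays numbered 1 (-0.91, adjusted p = 0.00369). Over 16 alternatives its difference ran from -1.06 to -0.37, and 4 of them passed, with adjusted p up to 0.862 in the others. Map2k1 read -0.16 and Shc1 0.21.

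**Figure D4:**
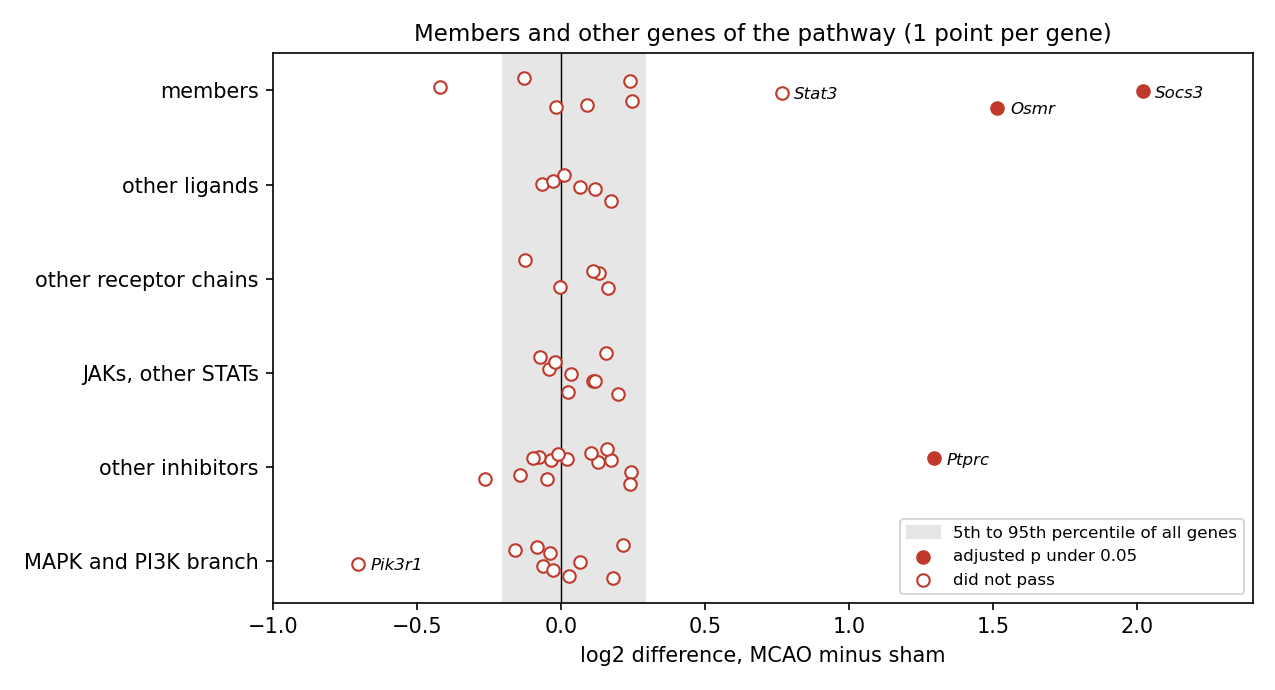
Log2 difference between MCAO and sham, 1 point per gene, for the 9 measured members and the 45 measured genes of 5 other pathway lists; filled points passed and the grey band spans the 5th to 95th percentile of all genes. Osmr, Socs3 and Ptprc are filled, and of the other genes in the 5 lists Pik3r1 and Socs5 lie outside the band.

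Textbook STAT3 target genes were counted as a readout further down the pathway. Of 28 measured, 6 rose and 0 fell, or 21.4% beside 1.13% of all genes, and their median was 0.18 log2. The groups did not overlap for 14 of the 28, beside 13.8% of all genes, and of these 14 Junb alone lay lower in MCAO. When blocked on sample number 12 rose and 0 fell, where 4.82% of all genes rose. The list was drawn up with earlier results of these data known, and many of its genes also answer to other factors, so nothing particular to STAT3 follows from these counts.

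The targets that rose were the lipocalin gene Lcn2 by 1.80 ± 0.16 log2 (SE; n = 3 in each group), the protease inhibitor gene A2m by 1.83, Cebpd by 1.50, the G1 cyclin Ccnd1 by 1.21, Timp1 by 1.38 and the survivin gene Birc5 by 0.97, with adjusted p from 0.00405 to 0.0303. A2m read 8.71, 8.51 and 8.45 on MCAO 1, 2 and 3, and 6.46, 7.10 and 6.61 on sham 1, 2 and 3, with the arrays numbered 1 at opposite ends of the 6. Cebpd read 8.45, 8.63 and 9.10 in MCAO and 7.21, 7.17 and 7.31 in sham. In both genes the groups were more than 1 log2 unit apart at their nearest values. Without sham 3, Ccnd1 and Timp1 lost their calls (adjusted p = 0.0743 and 0.0841). Birc5, a cell division gene, kept its call only without MCAO 3 among the 6 fits that left out an array, at adjusted p up to 0.164 in the others, and lost it on the values as deposited (adjusted p = 0.0532).

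The 6 targets that passed only with the block, picked out after their values were seen, were Gfap, Bcl3, Cebpb, Mcl1, Fgl2 and Icam1. Gfap, the astrocyte filament gene, read 9.91, 11.63 and 11.96 on MCAO 1, 2 and 3, and 7.29, 9.13 and 9.02 on sham 1, 2 and 3. The arrays numbered 1 were low in both groups, and the groups did not overlap. The differences of Bcl3, a nuclear regulator of NF-kappaB, Cebpb, Mcl1, Fgl2 and Icam1 were 0.44, 0.40, 0.37, 0.33 and 0.31. Junb, Vegfa and Bcl6 read lower in MCAO without passing, by 0.38, 0.26 and 0.13.

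**Figure D5:**
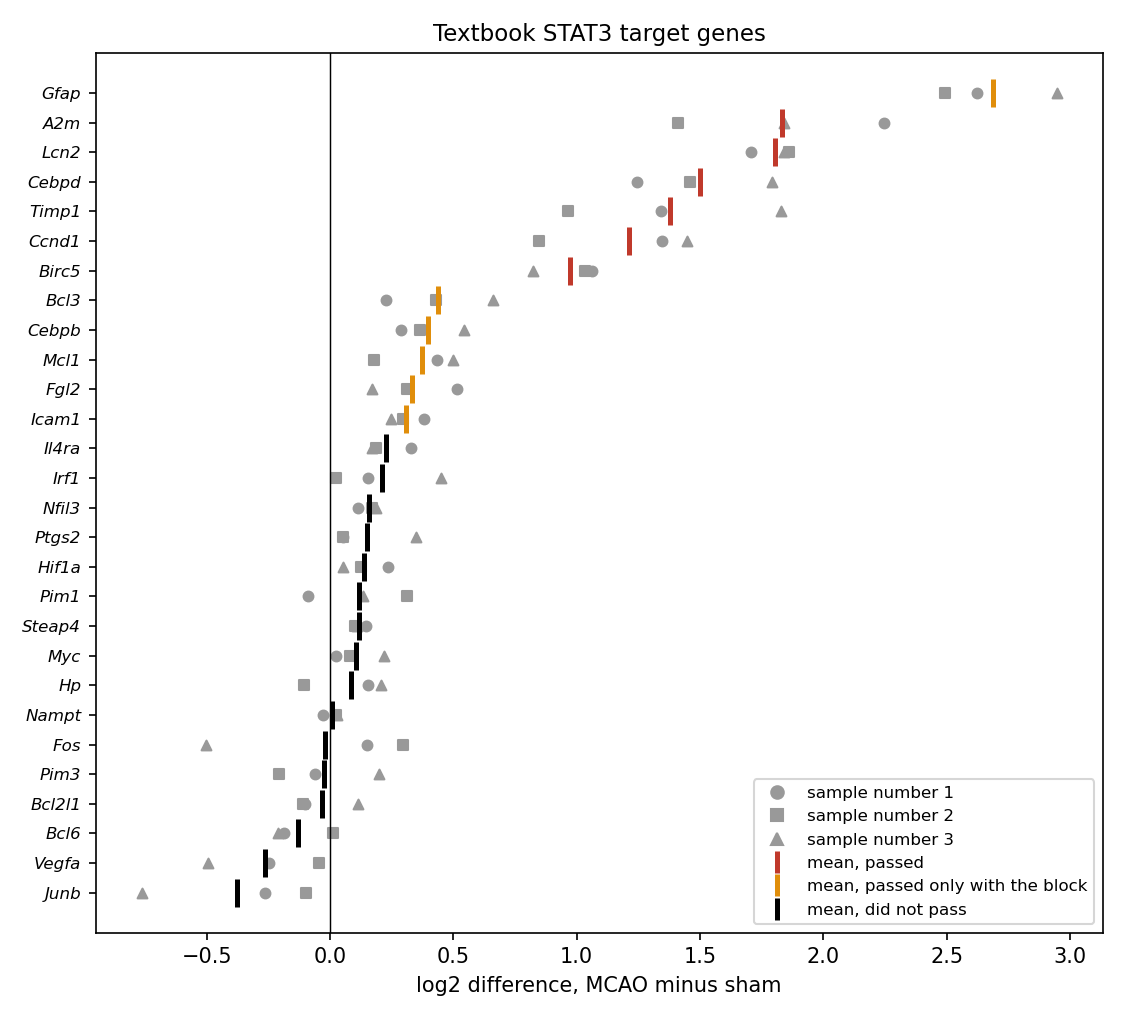
Log2 difference between MCAO and sham for 28 textbook STAT3 target genes; grey symbols are the differences within same-numbered samples and the vertical strokes their means, coloured by whether the gene passed. The 6 genes that rose lie at 0.97 to 1.83, and Gfap lies furthest right and passed only with the block.

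Markers of other cells moved in the same samples as Osmr, Stat3 and Socs3, and their part in these differences was not tested. For the counts that follow, 1.13% of all genes were called, 6.12% with the block, and 8.77% had an unadjusted p under 0.05. The groups did not overlap for 13.8% of all genes, and 47.7% read higher in MCAO. Of 7 microglia markers 1 rose (4 with the block), and all 7 read higher in MCAO (median 0.36). Their summed linear level was 4487 to 7289 in MCAO and 3422 to 3658 in sham. The sum was highest on MCAO 1. Such sums weigh bright probe sets most. Csf1r, the brightest of the 7, was highest there too (12.09), which is not a separate observation from the sum. Tmem119 was lowest there (7.59) and Fcrls, the marker that rose, was highest on MCAO 3 (9.94). On their brightest probe sets, Stat3 was highest on MCAO 1 among the MCAO arrays, and Osmr and Socs3 were lowest. Stat3 was also highest on sham 1 among the sham arrays. On the second bright Stat3 probe set MCAO 1 was the lowest of its group (8.34). On the Osmr probe set 1418675_at MCAO 3 was the lowest (6.53). Of 7 markers listed for infiltrating monocytes or macrophages 3 rose (5 with the block; median 0.45), Mrc1 by 0.96, Ms4a6c by 0.70 and Plac8 by 0.64. All 7 were dim without MCAO, each with a sham mean under that of the median gene. Whether monocytes or macrophages had entered the tissue was not tested. The groups did not overlap for 5 of the 7, with sums of 710.0 to 761 in MCAO and 519 to 550.2 in sham. Ccr2, a chemokine receptor of these cells, differed by 0.04 and the list's remaining overlapping marker, F10, by 0.0010. Of 6 neutrophil markers 0 passed, with 2 at an unadjusted p under 0.05 and sums of 449 to 493 in MCAO and 408 to 467 in sham.

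Of 8 astrocyte markers 2 rose (3 with the block), Aldh1l1 by 0.89 and Aqp4 by 0.97, with a median of 0.08 for the list. The summed level of the list weighs Slc1a2, Aldoc and Gja1 more than Aldh1l1 and Aqp4. It overlapped between the groups, at 17234 to 22703 in MCAO and 17165 to 20140 in sham. Of 8 markers of mural cells or fibroblasts 1 rose, Tagln, whose profile was nearest to that of Socs3. In this list 6 read higher and 2 lower in MCAO, with a median of 0.03. The pericyte genes Pdgfrb, Rgs5, Kcnj8 and Abcc9 differed by -0.10, -0.16, 0.02 and 0.05. Acta2, Dcn and Col1a1 differed by 0.17, 0.19 and 0.0032. Of 7 neural stem and progenitor markers 0 passed, with 0 at an unadjusted p under 0.05, and of 8 neuroblast markers 0 passed, with 2 at an unadjusted p under 0.05 (1 rose with the block). Of 8 ependymal markers 0 passed, with 0 at an unadjusted p under 0.05 (1 rose with the block), though all 8 read higher in MCAO (median 0.23). Of 6 striatal neuron markers 0 passed, with 2 at an unadjusted p under 0.05, and all 6 read lower in MCAO (median -0.18), 3 of them without overlap. With the block Drd1, a dopamine receptor gene, fell by 0.34 (adjusted p = 0.0179). The summed level of the striatal list was 16444 to 18585 in MCAO and 19118 to 21969 in sham.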

How the data were processed

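Total RNA was labelled with biotin and hybridised to 6 one-colour arrays. The deposited values are log2 expression values for 45101 probe sets, per the file's own range; the authors' method of background correction, probe summary and normalization is not given in the sources used here. Quantile normalization between arrays was added over all probe sets, because upper quantiles differed (90th percentiles 8.85 to 9.06), as in earlier work on these data. The array's annotation gave 1 symbol to 34958 probe sets, several to 932 and none to 9211; the brightest probe set stood for each of 18194 genes.

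The comparison of MCAO with sham used limma 3.58.1 under R 4.3.3 (lmFit, eBayes, 2-sided, Benjamini-Hochberg over all genes, threshold 0.05). The fit without the block was also run on simulated data. Those drew every array independently, so they do not cover the shared deviations of same-numbered arrays or the blocked fit. All arrays entered 1 fit. The pairing follows the sample numbers, which have no stated meaning, and the deviations do not settle it for the arrays numbered 2 and 3. The number of arrays limits the precision. Named genes are the members, per list those past the threshold (at most 6) or the 3 with the smallest p, and the 3 nearest profiles. The members and lists were chosen with earlier results of these data known. Alternatives covered normalization, the block, probe set choice, a filter on dim genes, variance models and left-out arrays. Protein sequences were not used here.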

Additional observations from a re-analysis of the deposited data

How the results depend on the processing

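With the replicate block, 1113 genes passed in place of 206 (817 on the values as deposited), 2 other pathway genes in place of 1 (2 as deposited) and 12 STAT3 targets in place of 6 (10 as deposited); on the deposited scale 766 genes rose and 51 fell with the block. The block changed no other call of a member, pathway gene or named target than those of Stat3 and Pik3r1 and of the targets named above. Leaving out each array in turn gave 44 to 209 genes, 0 to 2 members, 0 to 2 pathway genes and 3 to 7 targets. The lowest counts of genes, members and targets came without sham 3, where 4 members had an unadjusted p under 0.05, beside 1140 of all 18194 genes. With suffixed probe sets left out 1 member passed, beside 203 genes in all. Without both arrays numbered 1, 4 members passed (3 higher, 1 lower) and 2 pathway genes, beside 235 genes in all (209 higher, 26 lower). Averaging each gene's probe sets, 0 pathway genes passed, with 3 at an unadjusted p under 0.05, beside 193 and 1595 of all genes.

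Il6ra changed sign on the values as deposited, with and without the block (0.0080), with the mean of its probe sets (0.078), with its other probe set (0.17) and without MCAO 1, MCAO 2 or sham 2 (0.028, 0.014 and 0.039, in a range from -0.097 to 0.039 over the 6 left-out arrays). Il11 turned without MCAO 3 (-0.011, in a range up to 0.21), as did Ptpn2 without suffixed probe sets (-0.18). None of these passed. The cause of these changes was not tested. The alternatives gave Osmr 0.63 to 1.70, Stat3 0.36 to 0.95 and Socs3 0.73 to 2.30 log2, all higher in MCAO.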
